A study of Mus musculus with 6 samples.

Results

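Acyl-CoA thioesterases are the enzymes that split a fatty acyl-CoA into the free fatty acid and coenzyme A. The 8 genes Acot1, Acot2, Acot3, Acot4, Acot5, Acot8, Acot12 and Acot13 were taken by symbol from the 18444 genes listed over 6 mouse liver libraries, and all 8 were found. The measurements were the expected count of each gene, which is the authors' estimate of its reads, and FPKM, which is the same reads scaled to transcript length and library size.

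Livers came from male C57BL/6 mice (C57BL/6J in the methods) whose labelled age was 6 to 8 weeks, in 2 disease models with 3 libraries each and 1 library per condition. In the diet model, SD was the standard diet control (labelled as a chow control), HFD was a high fat diet fed for 16 weeks (labelled NASH, nonalcoholic steatohepatitis), and HFD plus JT003 was the same diet with JT003 at 0.5 mg/kg daily over 4 weeks. In the fibrosis model, the hepatotoxin CCl4 was given as a 20% solution in corn oil, 5 ml/kg every 3 days for 6 weeks, corn oil was the vehicle control, and CCl4 plus JT003 added 0.5 mg/kg daily over 3 weeks. JT003 is a modified peptide derived from adiponectin that was designed to activate both adiponectin receptors, and the question of each comparison was how the liver transcriptome differed with the disease model and with the peptide. The labels name no genetic change in any group, the methods give 6 mice per group and an 8 h fast, and whether a library held the RNA of 1 mouse or of several was not stated. The labelled age is under the 16 weeks of diet, so it was not the age at collection, which was not given. The 2 models differ in treatment, vehicle and length, and with length probably in age at collection. The hour at which livers were taken was not given in the sources used here.

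Thioesterases act against the acyl-CoA synthetases, so that the 2 kinds of enzyme together set how much fatty acid is held as CoA ester in each compartment of the cell. The family is spread over the cytosol, the mitochondrial matrix and the peroxisome, where released acyl groups can leave as free acids once chain shortening has ended and CoA is returned to the matrix. Type I members (Acot1 to Acot6) are close copies that lie side by side in the genome, whereas type II members (here Acot8, Acot12 and Acot13) share the reaction and not the fold. In liver several members, Acot1 foremost, are known to be raised by fasting and by ligands of PPARα, the nuclear receptor that switches on fatty acid oxidation. By compartment, Acot1 and Acot12 are cytosolic, Acot2 is in the matrix, Acot13 is associated with mitochondria, and Acot3, Acot4, Acot5 and Acot8 are peroxisomal.

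The last 30 coding bases of each member are shown because a peroxisomal matrix enzyme is sorted by its last 3 residues, so that the compartment by which the results are ordered can be read against them. The sequences are those of GENCODE transcripts matched to the RefSeq accession of each gene, with the last 3 codons before the stop in capitals.
Acot1: gagtgtttgcatgtgtctCCTAAAATAtaa
Acot12: actcctgatggacttaaaAGTGTGTTAtaa
Acot2: ttccacaaacagttgggtAGCAAGAGTtag
Acot13: ggcagacacacaaaacacCTGGGGAACtga
Acot3: aaaaagaagacaatcccaGCAAAACTGtga
Acot4: acccacagcagagcctccTGTAGACTGtag
Acot5: gacaagaggccaagcccaGCAAAACTAtga
Acot8: aagcctcaggtgtcagagAGTAAGCTAtag
The cytosolic and mitochondrial members stand first and the peroxisomal members last. The endings of Acot3 and Acot5, GCAAAACTG and GCAAAACTA, are close to each other.

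Acot3 and Acot4, the members with the highest ratios for JT003 in the diet model, are neighbours on chromosome 12, and the 250 bases before their start sites are shown for that reason. The windows come from RefSeq on GRCm38.p6, plus strand, and the authors' files were made on another build, so that only these windows carry coordinates. The stretch before Acot4 is chr12:84038129-84038378 and that before the first of 2 start sites of Acot3 is chr12:84051894-84052143. Capitals in Acot4 mark a stretch that reads, on the opposite strand, as a loosened spelling of a nuclear receptor direct repeat. It is not the full repeat, as given below.
Acot4: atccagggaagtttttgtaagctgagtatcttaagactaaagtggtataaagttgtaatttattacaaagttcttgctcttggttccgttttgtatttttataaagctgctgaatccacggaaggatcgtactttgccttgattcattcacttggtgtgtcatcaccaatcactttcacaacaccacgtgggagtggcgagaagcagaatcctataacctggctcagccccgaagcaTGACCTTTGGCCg
Acot3: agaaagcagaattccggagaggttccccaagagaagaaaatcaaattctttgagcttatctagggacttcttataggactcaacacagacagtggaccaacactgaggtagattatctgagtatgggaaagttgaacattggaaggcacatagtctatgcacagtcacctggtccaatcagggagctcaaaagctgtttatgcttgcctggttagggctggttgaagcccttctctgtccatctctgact
The 6-base half-site AGGTCA was found on either strand in 16.3% of 32851 promoter windows of 300 bases, and in those of Acot3, Acot4, Acot5 and Acot12 among the 7 members that had a window. The full direct repeat, 2 such half-sites with 1 base of any kind between them, was in 0.0396% of the windows and in no member. A looser spelling chosen after the window of Acot4 had been seen, GGNCA and AGGTCA with 1 base of any kind between them, was in 0.207% of the windows and, among the members, in that of Acot4, where it starts at position -13 from the start site, reads TGACCTTTGGCC and includes the half-site. In Acot3 the half-site lies after the start, at position 19 from the first start site. A match of letters is a description of the window and not of binding.

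Expected counts were rounded and summed to between 19374236 and 20184557 per library, with 16083 to 16738 genes listed in each. All 14 hepatocyte markers, such as Alb and Cps1, had reads in every library, and their summed level was 108535 to 128297 CPM (counts scaled to library size), so the labelled tissue was met. The summed level of 6 proliferation markers was 199 CPM in the CCl4 library against 4.31 to 19.7 in the other 5. In whole liver, fewer cells of a type and less RNA per cell cannot be told apart. A log2 ratio below compares the counts of 2 libraries scaled by TMM factors with a prior count of 2, and its bracket is a 95% Clopper-Pearson interval. A gene was called when the ratio passed 2-fold and the higher library held at least 10 counts. With 1 library per condition there was no replicate check, no error between mice and no test of the conditions. Intervals cover counting error only and compare libraries. For the authors' pooled CCl4 column, whose total is 2.97 times that of the CCl4 library, the counts left after taking that library away are used as a further CCl4 measurement. They are called the CCl4 remainder, they hold no named libraries, and that the column is a pool was inferred from its values.

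Per length, Acot1 was the most abundant member in 5 of the 6 libraries. In the diet model its FPKM was 346 (SD), 36.8 (HFD) and 96.3 (HFD plus JT003), and in the CCl4 model it was 169 (corn oil), 132 (CCl4) and 166 (CCl4 plus JT003). In SD, Acot1 alone made 59.1% of the summed FPKM of the 8 members, and in HFD it made 21.8%. In the HFD library Acot1 stood behind 2 other members, Acot13 at 50.3 FPKM and Acot12 at 42.4 FPKM. Acot12, the acetyl-CoA hydrolase of the cytosol, stood next to Acot1 at 70.4 FPKM in SD and behind 4 members at 40.1 FPKM in CCl4 plus JT003. Acot2 and Acot3 moved furthest in the order. Acot2 went from a place behind 2 members at 52.8 FPKM in SD to a place above Acot5 alone at 9.71 FPKM in HFD plus JT003. Acot3 went the other way, from a place above Acot5 alone at 15.9 FPKM in SD to a place behind Acot1 and Acot13 alone at 50.8 FPKM in CCl4 plus JT003. Acot5 stood last in every library, at 0.04 to 0.40 FPKM.

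Neighbours in that order were mostly apart by more than counting error. The Poisson intervals overlapped between Acot13 (34.8 FPKM) and Acot8 (34.2 FPKM) and between Acot8 and Acot4 (31.0 FPKM) in SD, between Acot12 (54.8 FPKM) and Acot13 (49.1 FPKM) in HFD plus JT003, and between Acot8 (25.0 FPKM) and Acot4 (24.4 FPKM) in CCl4. All 8 members summed to 586 FPKM (SD), 168 (HFD) and 291 (HFD plus JT003) in the diet model, and to 333 (corn oil), 334 (CCl4) and 429 (CCl4 plus JT003) in the other. Of that sum the peroxisomal members made 13.9% in SD and 15.0% in corn oil, the 2 control livers. Their share was 20.1% in HFD and 20.1% in CCl4, and it was highest with JT003, at 28.0% in HFD plus JT003 and 25.0% in CCl4 plus JT003. The cytosolic members made 71.1% of the sum in SD and 64.3% in corn oil, against 47.0% to 52.8% in the other 4 libraries.

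**Figure D1:**
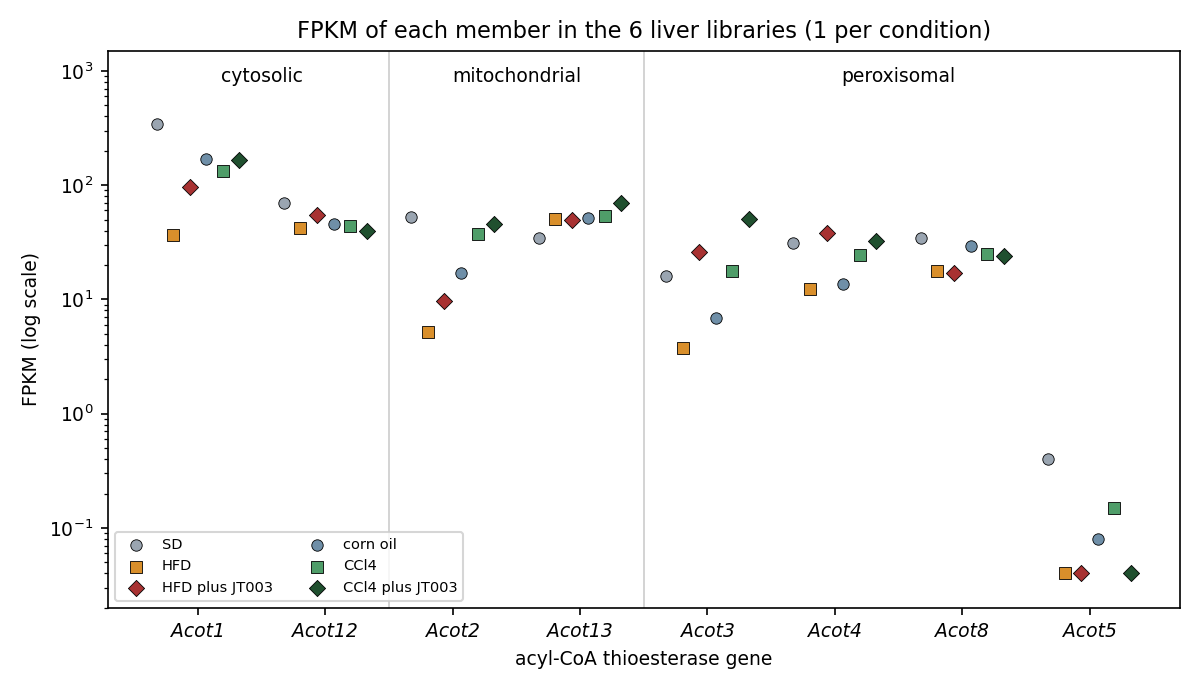
FPKM on a log axis of the 8 members, ordered by compartment, in the 6 liver libraries, with 1 point for each library. Acot1, Acot2 and Acot3 spread over about 10-fold or more between libraries, Acot13, Acot12 and Acot8 over a much narrower range, and Acot5 lies at or below 0.40 FPKM throughout.

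Over the 6 libraries the type I members varied most. After TMM scaling the highest library exceeded the lowest 12.5-fold for Acot3, 11.2-fold for Acot2, 10.2-fold for Acot1 and 3.08-fold for Acot4. Acot5 ranged 13.7-fold, on 1 to 12 counts, and those counts are too few to rank it. The type II members ranged 2.19-fold for Acot8, 2.08-fold for Acot12 and 1.69-fold for Acot13. HFD was the lowest library for Acot1, Acot2, Acot3 and Acot4, and SD was the highest for Acot1, Acot2, Acot5, Acot8 and Acot12. Acot13 went the other way, with its lowest level in SD.

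With the high fat diet, 6 of the 8 members were called, all of them lower in HFD than in SD, where 10.1% of the 13335 genes over the count minimum were called in either direction and 4.15% were called lower. All 5 type I members were among the 6, and the sixth was the peroxisomal type II enzyme Acot8. The median log2 ratio was -1.83 over the members and 0.00 over all genes. Acot13 was the one member above 0.

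Among the cytosolic members, Acot1, the long-chain acyl-CoA hydrolase, had 10856 counts in SD and 1129 in HFD. The HFD library was 10.2-fold lower, a log2 ratio of -3.35 (-3.45 to -3.27), and 0.157% of all genes lay further down. Acot12 had 4373 counts in SD and 2572 in HFD, a log2 ratio of -0.86 (-0.93 to -0.79) that did not pass 2-fold. In the matrix, Acot2 had 2369 counts in SD and 226 in HFD, with a log2 ratio of -3.47 (-3.68 to -3.28). This was the lowest ratio of the family, 11.1-fold. Acot13, a small thioesterase with a hotdog fold, had 466 counts in SD and 659 in HFD, 1.33-fold higher, at 0.41 (0.24 to 0.58).

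The peroxisomal members were also lower. Acot3, with long-chain substrates, had 840 counts in SD and 192 in HFD, a log2 ratio of -2.21 (-2.45 to -1.99). Acot4, the succinyl-CoA and dicarboxylyl-CoA hydrolase, had 1461 and 567 counts, at -1.45 (-1.60 to -1.32). Both fell less than Acot1 and Acot2, from which their intervals were clear. Acot8, the peroxisomal thioesterase with the broadest choice of substrates, had 792 and 404 counts, at -1.06 (-1.24 to -0.89). Scaled to total reads, Acot8 was at -0.93 and would not be called. Acot5 was called on 12 counts in SD and 1 in HFD, with a log2 ratio of -2.28 and an interval from -9.09 to -0.92. Without it the count is 5 of 7.

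**Figure D2:**
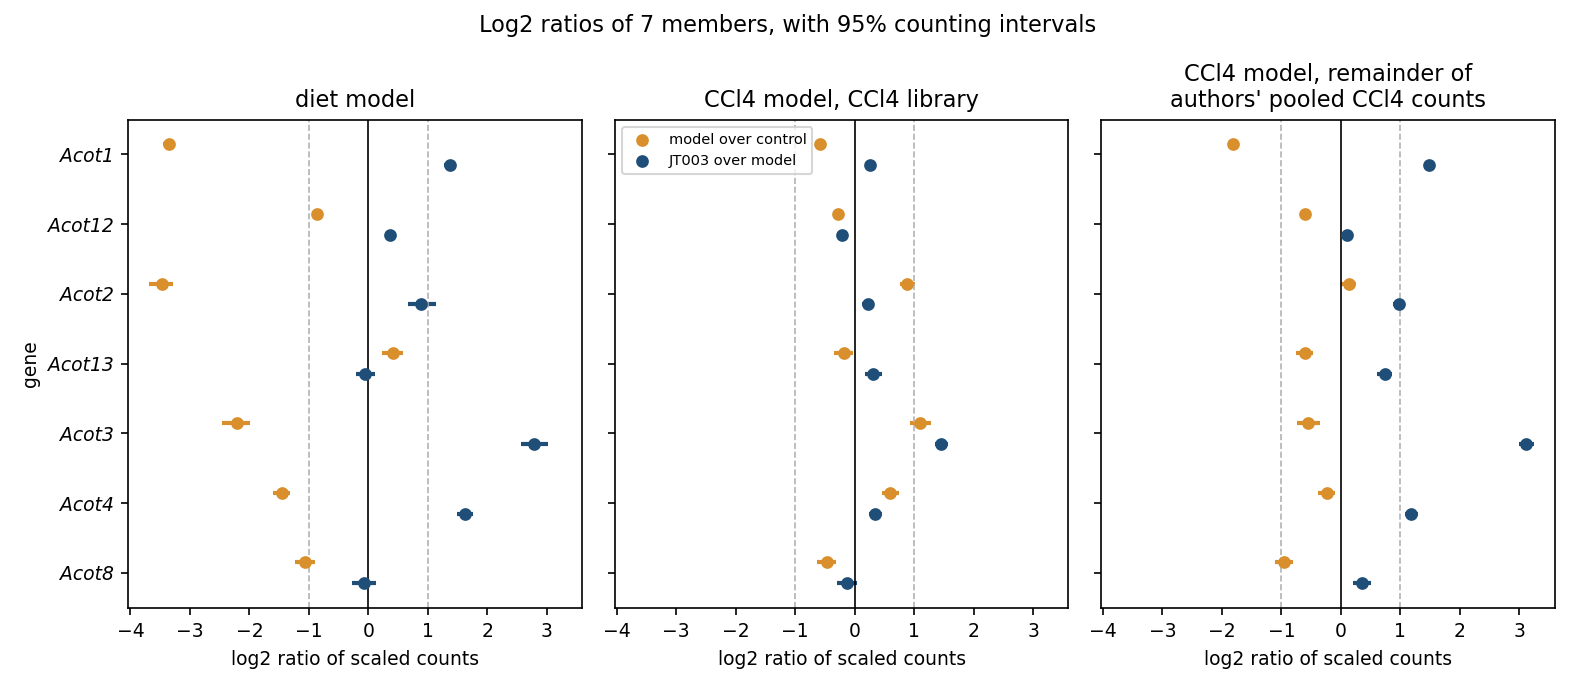
Log2 ratios of scaled counts (horizontal axis, dashed lines at 2-fold) for 7 members, with bars for the 95% counting intervals, in the diet model, in the CCl4 model with the CCl4 library, and in the CCl4 model with the CCl4 remainder. Orange points compare the model with its control and blue points compare JT003 with the model. Acot3 has the highest blue point in each panel, at 2.78, 1.46 and 3.11, whereas its orange point is at -2.21, 1.10 and -0.55.

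With JT003 on the high fat diet, 3 of the 7 members over the count minimum were called, all higher, against 4.71% of 13453 genes called in either direction and 2.35% called higher. They were Acot3, Acot4 and Acot1, and all are type I. Acot3 went from 192 to 1350 counts, 6.86-fold, with a log2 ratio of 2.78 (2.57 to 3.02), and 99.9% of all genes lay below it. Acot4 went from 567 to 1773 counts, at 1.62 (1.48 to 1.76), and Acot1 from 1129 to 2971 counts, at 1.37 (1.27 to 1.47). Acot2 went from 226 to 428 counts, at 0.89 (0.66 to 1.14), which reached 1.86-fold and was not called. Acot12 was at 0.36 (0.28 to 0.43). Acot13 had 659 and 646 counts and Acot8 had 404 and 391, with log2 ratios of -0.05 (-0.21 to 0.11) and -0.07 (-0.27 to 0.13), so that no difference was detectable at this depth. Acot5 had 1 count in each library. The comparison shares the HFD library with the one before, so the opposite signs of the members are not separate evidence.

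Against SD, HFD plus JT003 placed the members at very different levels. Of the 8 members 4 were called lower, Acot1, Acot2, Acot5 and Acot8, where 11.1% of 13402 genes were called in either direction and 4.56% were called lower. Acot2 was 5.97-fold lower at a log2 ratio of -2.58 (-2.73 to -2.43) and Acot1 was 3.95-fold lower at -1.98 (-2.04 to -1.92). Acot8 was at -1.13 (-1.31 to -0.96), close to its ratio in HFD alone, and the interval spans 2-fold. Acot5 was called on 12 counts in SD and 1 in HFD plus JT003, at -2.29 (-9.12 to -0.94). The peroxisomal pair lay at or above SD, Acot3 at 0.57 (0.45 to 0.70) and Acot4 at 0.17 (0.06 to 0.27). Acot13 was at 0.36 (0.18 to 0.53) and Acot12 at -0.50 (-0.57 to -0.43).

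These libraries also differed in other ways, whose part in the ratios was not tested. The summed level of 10 stellate cell and myofibroblast markers was 253 CPM in SD and 441 with HFD, and stood at 346 once JT003 was added, and that of 9 macrophage markers was 346, 341 and 469, with every marker of both lists above 0 in all 3. Of 12 clock genes, 4 were called higher and 2 lower in HFD than in SD, among them Dbp, an output gene of the clock, with 398 and 1738 counts, a log2 ratio of 2.03. With JT003, 1 was called higher and 2 lower.

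In the fibrosis model the members lay on both sides of 0 in the CCl4 library. With CCl4, 1 of the 7 members over the count minimum was called, Acot3, which was higher, where 13.7% of 13602 genes were called in either direction and 8.76% were called higher. Acot3 had 352 counts in corn oil and 927 in CCl4, 2.15-fold, with a log2 ratio of 1.10 (0.93 to 1.29). Acot2 had 740 and 1667 counts, at 0.88 (0.76 to 1.01), and Acot4 had 619 and 1147 counts, at 0.60 (0.46 to 0.74). Acot1 was on the other side of 0, with 5100 and 4147 counts, at -0.59 (-0.65 to -0.53). The type II members lay below 0, Acot8 at -0.47 (-0.63 to -0.31) and Acot12 at -0.28 (-0.36 to -0.21). Acot13 was at -0.18 (-0.34 to -0.03), which became 0.05 when libraries were scaled to total reads. The summed reads of Acot1 to Acot6 were 6820 in corn oil and 7911 in CCl4, at -0.07 (-0.12 to -0.03).

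With the CCl4 remainder in place of the CCl4 library, the picture for Acot3 turned round. It had 614 counts in the remainder, and the ratio to corn oil was -0.55 (-0.74 to -0.36). Acot4 turned as well, with 1342 counts and a ratio of -0.24 (-0.38 to -0.10). Acot1 had 3695 counts and was called lower, 3.53-fold, at -1.82 (-1.88 to -1.76), and it was the 1 member called of 7, where 16.7% of 14581 genes were called in either direction and 3.92% were called lower. Acot2 was the 1 member above 0, at 0.13 (0.01 to 0.25), and the median of the 7 was -0.60. The summed reads of Acot1 to Acot6 were 7744 in the remainder, at -1.17 (-1.22 to -1.12) against corn oil, so the near-equal sum above also belongs to the CCl4 library alone. Acot8, Acot12 and Acot13 were at -0.95, -0.60 and -0.61. The statement that Acot3 is higher with CCl4 therefore rests on 1 library.

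All 7 members were higher in the CCl4 library than in the CCl4 remainder (both are named CCl4 by the authors). The log2 ratios of the library over the remainder, a comparison added after the data had been seen, were 1.64 (1.496 to 1.79) for Acot3, 1.22 (1.15 to 1.28) for Acot1, 0.82 (0.71 to 0.94) for Acot4 and 0.74 (0.65 to 0.83) for Acot2. They were 0.47 (0.32 to 0.62) for Acot8, 0.41 (0.27 to 0.55) for Acot13 and 0.30 (0.23 to 0.37) for Acot12. Acot3 and Acot1 were called higher, 2 of the 7, where 5.54% of 14545 genes were called in either direction and 0.646% were called higher. The median was 0.74 over the members and -0.02 over all genes, and all 26 PPARα targets lay above 0 as well, with a median of 0.42. The same 2 measurements differed in other cell types, since all 9 macrophage markers were lower in the library, with a summed level of 197 against 380 CPM, and 9 of the 10 stellate and myofibroblast markers were lower, with 476 against 622. What part this has in the ratios was not tested.

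With JT003 added to CCl4, Acot3 was again the member with the highest ratio. It had 927 counts in CCl4 and 2573 in CCl4 plus JT003, 2.75-fold, at a log2 ratio of 1.46 (1.35 to 1.57), and it was the 1 member called of 7, where 8.88% of 13785 genes were called in either direction and 4.64% were called higher. Acot4 was at 0.35 (0.23 to 0.46), Acot13 at 0.32 (0.17 to 0.46), Acot1 at 0.26 (0.20 to 0.32) and Acot2 at 0.22 (0.13 to 0.32). Acot12 was at -0.21 (-0.29 to -0.13) and Acot8 at -0.13 (-0.30 to 0.04). Against the CCl4 remainder, 3 of the 7 were called higher, where 9.07% of 14592 genes were called in either direction and 2.63% were called higher. They were Acot3 at 3.11 (2.99 to 3.25), Acot1 at 1.49 (1.43 to 1.55) and Acot4 at 1.18 (1.07 to 1.29), which are the genes called with JT003 in the diet model. Acot2 was at 0.97 (0.88 to 1.06) and all 7 lay above 0. The direction of Acot3 with JT003 was thus the same against both CCl4 measurements, while the size ranged from 2.75-fold to 8.65-fold. Both ratios share the 1 CCl4 plus JT003 library, so they are not separate evidence. The 2 CCl4 measurements were themselves 1.64 apart in Acot3, more than the 1.46 of JT003 over the library.

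Set against corn oil, CCl4 plus JT003 had 2 of 7 members called, both higher, where 11.4% of 13731 genes were called in either direction and 8.00% were called higher. Acot3 was 5.92-fold higher at 2.56 (2.41 to 2.74) and Acot2 was 2.15-fold higher at 1.10 (0.98 to 1.23). Acot4 was at 0.95 (0.81 to 1.09). Acot1 was at -0.33 (-0.38 to -0.27), Acot12 at -0.49 (-0.57 to -0.41), Acot8 at -0.59 and Acot13 at 0.13 (-0.01 to 0.28). These 3 libraries differed strongly in clock genes, whose part was not tested. Of the 12, 2 were called higher and 5 lower in CCl4 than in corn oil, and 7 higher and 2 lower in CCl4 plus JT003 than in CCl4. The counts of Dbp, in the order control, model and JT003, were 824, 96 and 1931, whereas Arntl, the activator that opposes it in phase, had 142, 386 and 34 counts. Between the library and the remainder of CCl4, 1 of the 12 clock genes was called, Ciart, lower in the library at -1.47 (-2.23 to -0.88), and Dbp was at -0.14. In the same order the summed macrophage markers were 81.0, 197 and 320 CPM, and the proliferation markers 7.89, 199 and 19.7 CPM.

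The 2 control livers were themselves apart. Corn oil over SD compares controls that differ in vehicle injection, in the length of the experiment and so probably in age. In it 4 of the 8 members were called lower, where 11.1% of 13302 genes were called in either direction and 5.93% were called lower. Acot2 was at -1.53 (-1.65 to -1.41), Acot3 at -1.10 (-1.29 to -0.92) and Acot4 at -1.09 (-1.23 to -0.95). Acot5 was called on 12 and 2 counts, at -1.71 (-5.64 to -0.27). Acot1 was 1.92-fold lower, at -0.94 (-0.99 to -0.89). Acot12 was at -0.53 and Acot8 at -0.12 (-0.27 to 0.03), whereas Acot13 was at 0.66 (0.49 to 0.84). All 9 macrophage markers were called lower in corn oil than in SD, with a summed level of 81.0 against 346 CPM, and the part of this in the ratios was not tested. The distance between the control livers is larger than that between the CCl4 library and corn oil for Acot1, Acot2 and Acot4, and equal in size for Acot3. With the CCl4 remainder, at -1.82 for Acot1 and -0.55 for Acot3, it is smaller for Acot1 and larger for Acot3.

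Because the type I genes are near copies, their reads were also read as shares of one sum. Over aligned coding bases Acot1 and Acot2 were 95.6% identical, Acot1 and Acot3 87.5%, and Acot1 and Acot4 79.8%. Of the 50-base windows of the Acot1 transcript, 32.1% also occurred in another type I transcript, against 27.6% for Acot2, 22.7% for Acot5, 7.69% for Acot3 and 4.49% for Acot4. These windows are those of the GENCODE transcripts, of 2272 bases for Acot1, 3431 for Acot3 and 6203 for Acot4. The authors' files list shorter lengths for Acot1 and Acot3, 1559 and 2594. For Acot4, 31.0 FPKM on 1461 counts in SD, against 15.9 on 840 for Acot3, also points to a length far under 6203. The shares on their reference were not measured and may differ. A read from a shared window can only be assigned by the authors' estimate. By the GENCODE windows the values of Acot1 and Acot2 are less certain than those of Acot3 and Acot4, and the 1 to 12 counts of Acot5 are uncertain for the same reason. The log2 ratio of the summed reads was -2.95 (-3.02 to -2.89) for HFD over SD, and they were 3.01-fold higher with JT003, at 1.59 (1.52 to 1.66). With JT003 in the CCl4 model the sum was at 0.47 (0.42 to 0.51) against the library and at 1.56 (1.52 to 1.60) against the remainder. The sum does not depend on how reads were divided within the group.

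The share of Acot3 in these reads was highest in both JT003 libraries. It was 5.40% in SD (Wilson interval 5.06% to 5.77%), 8.98% in HFD (7.84% to 10.3%) and 20.7% in HFD plus JT003 (19.7% to 21.7%). In the CCl4 model it was 5.16% in corn oil (4.66% to 5.71%), 11.7% in CCl4 (11.03% to 12.4%), 7.93% in the CCl4 remainder (7.35% to 8.55%) and 23.4% in CCl4 plus JT003 (22.6% to 24.2%). The intervals of the 2 JT003 libraries overlapped none of the other 5. Acot1 made 69.8% of the reads in SD and 74.8% in corn oil, and 45.5% in each JT003 library. Per 100 reads of Acot1 the reads of Acot3 were 7.74 with SD, 17.0 with HFD and 45.4 once JT003 was added, and in the other model 6.90, 22.4 and 51.4 in the same order. Acot4 made 9.39% in SD and about equal shares in HFD, 26.5% (24.7% to 28.4%), and in HFD plus JT003, 27.1% (26.1% to 28.2%). Acot2 made 6.55% in HFD plus JT003 and 26.7% in the CCl4 remainder, its lowest and highest shares.

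**Figure D3:**
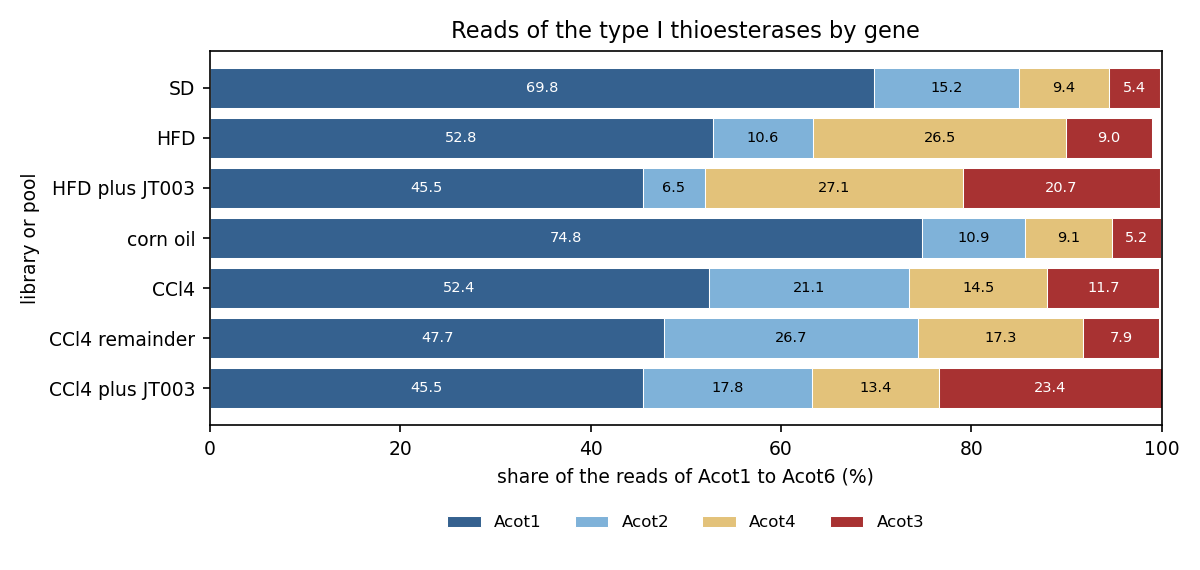
Shares (%, horizontal axis) of Acot1, Acot2, Acot4 and Acot3 in the summed reads of Acot1 to Acot6, in the 6 libraries and the CCl4 remainder, with Acot5 and Acot6 as the unlabelled rest. The Acot3 segment is 20.7% and 23.4% wide in the 2 JT003 libraries and 5.16% to 11.7% in the other 5 rows, and the Acot1 segment is widest in the 2 controls.

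The members were set beside 26 targets of PPARα, a list that holds none of them. All 26 lay below 0 in HFD against SD. Of these 14 were called lower, and the median was -1.10. Cyp4a14, a fatty acid hydroxylase, was lowest at -4.90 (-4.93 to -4.86), followed by Ehhadh, the peroxisomal bifunctional enzyme, at -4.67 (-4.70 to -4.63) and Pdk4, a brake on pyruvate oxidation, at -4.18 (-4.47 to -3.94). With JT003 on the diet 22 of the 26 lay above 0, the median was 0.31, and 4 were called higher, Cyp4a14 at 2.03, Cyp4a31 at 1.69, Cyp4a10 at 1.63 and Ehhadh at 1.14. Cidec, a lipid droplet protein, was called lower at -1.80. Acot3 at 2.78 was above every one of the 26. In the CCl4 library 22 of the 26 were below corn oil, with a median of -0.41, 4 called lower and 1 called higher, Pdk4 at 2.05. In the CCl4 remainder 24 of the 26 were below corn oil, with a median of -0.87, 10 called lower and 1 called higher. With JT003 on CCl4 the median was -0.04, with 2 called lower and none higher, whereas Acot3 was at 1.46. Against the remainder the median was 0.30, with 3 called higher.

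**Figure D4:**
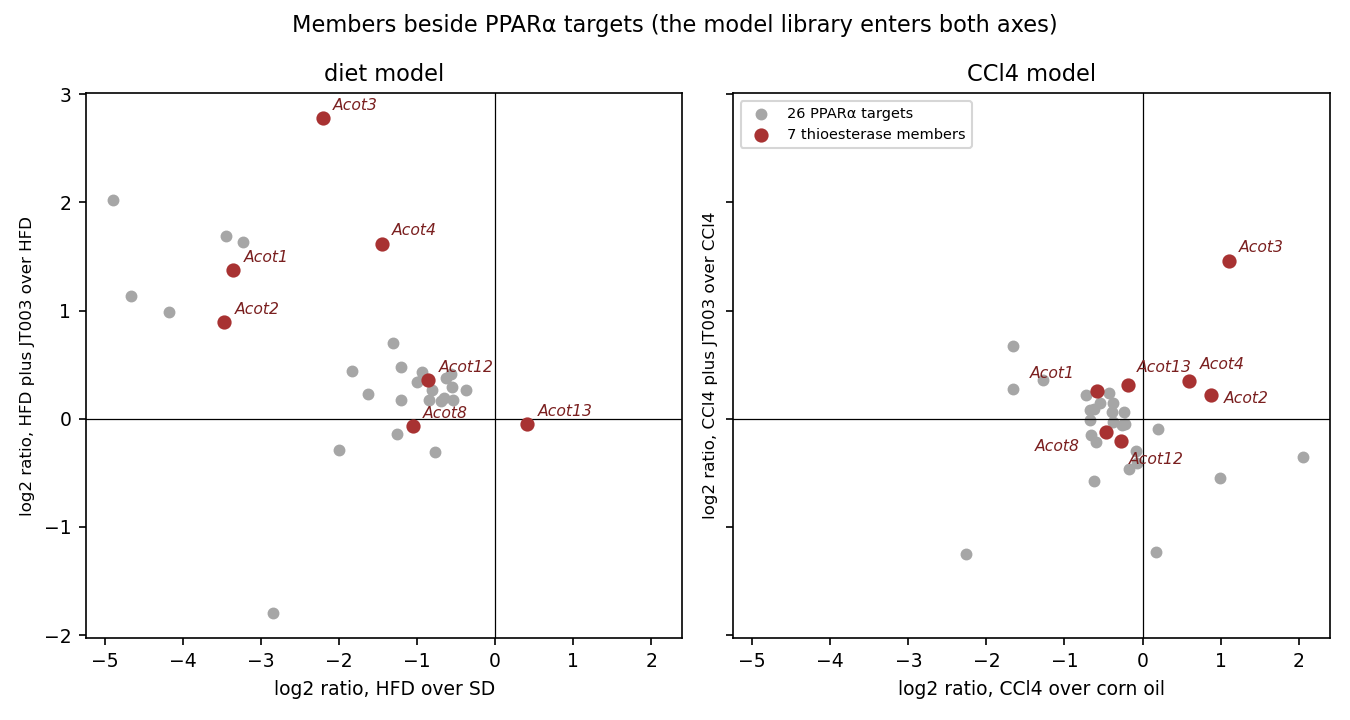
Log2 ratios of 7 members (red) and 26 PPARα targets (grey) in the diet model and in the CCl4 model, with the model over its control on the horizontal axis and JT003 over the model on the vertical axis, which share the model library. In the diet model Acot1 and Acot2 lie among the grey points at the upper left and Acot3 lies above all of them, at 2.78, and in the CCl4 model Acot3 is the highest point, at 1.46.

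The receptor itself was not called in any of these comparisons. Ppara was at -0.23 in HFD against SD, 0.28 with JT003 on the diet, -0.29 in CCl4 against corn oil and 0.06 with JT003 on CCl4. It lay further down in the CCl4 remainder against corn oil, at -0.49, and in corn oil against SD, at -0.90 (-0.95 to -0.85). Of the 14 genes of the receptor list, 1 was called lower in HFD, Fgf21, a liver hormone and itself a target, with 691, 73 and 205 counts from control to model to JT003. Pparg, the fat-storing relative, was called higher, at 1.35. In the CCl4 model Fgf21 had 460 counts in CCl4 and 182 in CCl4 plus JT003, at -1.34 (-1.60 to -1.10), a direction opposite to that of Acot3. Against the CCl4 remainder Fgf21 was at -0.56 (-0.81 to -0.32) and was not called.

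The enzymes and carriers on either side of the thioesterases were lower in HFD where they import acyl groups. Of 12 genes of carnitine and peroxisomal transport, 6 were called lower in HFD than in SD and 1 higher, with a median of -0.99. Cpt1a, the gatekeeper of mitochondrial import, was at -1.12, Crat and Crot, which load acetyl and medium-chain groups on carnitine, at -2.28 and -1.18, the carnitine importer Slc22a5 at -2.09, Cpt1b at -2.37 and the peroxisomal transporter Abcd3 at -1.02. Abcd2, a further peroxisomal transporter, was higher in HFD at 1.10 and in CCl4 at 2.54. None of the 12 was called with JT003 in either model, where the medians were 0.13 on the diet and -0.23 on CCl4. Of 17 acyl-CoA synthetases over the count minimum, which run the reverse reaction, 2 were called lower in HFD, Acsl1 at -1.33 and Slc27a1 at -1.26, and the median was -0.29. None was called with JT003 on the diet, and 2 were called lower with JT003 on CCl4, Acss2 at -1.32 and Acss3 at -1.65. Neither was called against the CCl4 remainder, where they were at -0.69 and -0.94. Slc27a1 is held by the list of PPARα targets too.

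Genes that make and break down CoA itself were mostly within 2-fold. Of 13, 2 were called lower in HFD, Ppcs, a step of CoA synthesis, at -1.04 and the mitochondrial CoA carrier Slc25a42 at -1.02, and the median was -0.13. None was called with JT003 in either model. In CCl4, Nudt7, the peroxisomal CoA diphosphatase, was called lower with 4601 counts in corn oil and 1650 in CCl4, at -1.77 (-1.85 to -1.69).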

How the data were processed

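Liver RNA was sequenced by the authors on a BGISEQ-500 instrument, 1 library for each of 6 conditions. The submitters' processing notes name HISAT, Bowtie2, RSEM and the build mm9, without versions or roles. For every gene the authors deposited an expected count, which is an estimated count that can divide a read between copies, and an FPKM, scaled by the authors to transcript length and library reads. In 69.9% to 70.9% of genes per library the expected count was a whole number exactly as written in the files. Their 4 comparison tables hold fold changes and p-values, which were not used, and of their expression columns 1, the apparently pooled CCl4 counts, was used and 7 were not.

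Expected counts were rounded, and library sizes scaled by TMM (edgeR 4.0.16, R 4.3.3), within each model's 3 libraries or across all 6 for corn oil over SD. TMM factors were 0.941, 1.03 and 1.04 in SD, HFD and HFD plus JT003, and 0.884, 1.04 and 1.09 in corn oil, CCl4 and CCl4 plus JT003. Log2 ratios used a prior count of 2, a call needed 2-fold and 10 counts in either library, and Clopper-Pearson and Wilson intervals came from scipy 1.17.1. The ratios, intervals and calls were tested on simulated counts with known changes, Poisson error alone and scaling to total counts. Variation between mice, the TMM scaling, the subtraction of the pool and the sequence steps were not covered by that test. Transcripts of GENCODE were aligned with Biopython 1.88, and tables and plots were made with Python 3.11.15, numpy 2.4.6, pandas 2.3.3 and matplotlib 3.10.9. The 8 members were named throughout, from each list the genes past 2-fold, and for each member the 3 genes with the nearest profile among those with at least 100 counts in some library; those of Acot5 are not reported here. The members and lists were chosen with earlier results of these data known. Each value was recomputed with total reads, with DESeq2 1.42.0 size factors, and with TMM over all 6 libraries, no count minimum or 100 counts, a prior count of 0.5, 1.5-fold, an exact binomial test at an adjusted p of 0.001, edgeR's exact test under a variation set to 0.4, log2 of the FPKM plus 0.1 or 1, summed type I counts, and the pooled CCl4 counts or their remainder.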

Additional observations from a re-analysis of the deposited data

Results flagged for a closer look

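Some members lay on opposite sides of 0 in the 2 disease models, each with a counting interval clear of 0. The difference between the models was not tested, since each rests on 1 library per condition. For HFD over SD and CCl4 over corn oil, the log2 ratios of Acot2 were -3.47 and 0.88, those of Acot3 were -2.21 and 1.10, those of Acot4 were -1.45 and 0.60, and those of Acot13 were 0.41 and -0.18. With the CCl4 remainder, Acot3 and Acot4 had the sign of the diet model, at -0.55 and -0.24, and with total reads Acot13 was at 0.05 in CCl4. For JT003, Acot12 had log2 ratios of 0.36 on the high fat diet and -0.21 on CCl4, and 0.11 against the CCl4 remainder.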

How the results depend on the processing

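No paired analysis was possible because each condition has 1 library and the labels carry no replicate numbers, and for the same reason no library could be left out. When edgeR's exact test was given a variation of 0.4 between mice, the members called were 0 in all 7 comparisons of the libraries, where by fold alone they were 6 for HFD over SD, 3 for HFD plus JT003 over HFD, 4 for HFD plus JT003 over SD, 1 for CCl4 over corn oil, 1 for CCl4 plus JT003 over CCl4, 2 for CCl4 plus JT003 over corn oil and 4 for corn oil over SD. The variation of 0.4 was assumed and not estimated from these data. No other value was tried, so the counts of 0 hold for that value alone. Other settings also changed the number of members called, and those given here are examples and not a full list. In HFD plus JT003 over SD, the FPKM plus 1 gave 2. In CCl4 over corn oil, total reads, the FPKM plus 0.1 and the FPKM plus 1 gave 2 each and 1.5-fold gave 4. In CCl4 plus JT003 over CCl4, no count minimum gave 2 and the CCl4 remainder gave 3, and in CCl4 plus JT003 over corn oil 1.5-fold gave 4. The 1.5-fold limit also added Acot12 in HFD over SD, at -0.86, and Acot2 in HFD plus JT003 over HFD, at 0.89. In corn oil over SD it added Acot1 at -0.94 and Acot13 at 0.66. With total reads Acot8 was no longer called in HFD over SD. The higher count minimum left out Acot5, whose calls rest on 12 counts in SD.

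The log2 ratio of Acot3 in CCl4 over corn oil turned to -0.55 with the remainder, and that of Acot5 with JT003 on CCl4, on 5 and 1 counts, to 0.37. The summed reads of Acot1 to Acot6, set in place of the single gene, were at -0.074 and 0.47 in the same 2 comparisons. Those are ratios of the whole group and not of Acot3 or Acot5. Of 395 values under an alternative, the summed reads in place of single genes among them, 265 moved by less than their counting interval. The sign changed in 21, among them the 4 above, which had been past 2-fold, while the other changes of sign were in ratios under 2-fold. Scaling to total reads moved the median of all genes by 0.13 in HFD over SD and by 0.24 in CCl4 over corn oil, and the share of calls that were higher from 58.9% to 69.1% and from 64.1% to 78.7%. In HFD plus JT003 over SD this share moved from 59.0% to 70.1%, and in CCl4 plus JT003 over corn oil from 70.4% to 86.8%. The number of genes called for HFD over SD was 1345, against 695 with 100 counts, 3150 at 1.5-fold, 542 with the FPKM plus 1 and 50 with the assumed variation. The cause of these shifts was not tested.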

Other observations

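Thioesterases outside the 8 members followed other patterns. Acot11, a thioesterase best known from brown fat, had 80 counts with SD, 276 with HFD and 226 once JT003 was added, and the HFD library was 3.19-fold higher than SD at a log2 ratio of 1.67 (1.33 to 2.07), while 85, 84 and 83 counts were found in corn oil, CCl4 and CCl4 plus JT003. Acot9, a mitochondrial enzyme, had 61, 68 and 66 counts in the diet model and 42, 111 and 121 in the CCl4 model, and was called higher in CCl4 at 1.08 (0.59 to 1.66). Acot6, the remaining type I copy, had 17, 22 and 12 counts and 5, 18 and 1 counts, so its calls rest on few reads. Acot7, Them4, Baat, the bile acid conjugating enzyme, and the lysosomal Ppt1 and Ppt2 were not called in any of these 4 comparisons of a model with its control or of JT003 with its model, and Baat ranged from 4069 to 5058 counts. Them5 and Olah had at most 5 counts and Acot10 was not analysed here.

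The genes whose profile over the 6 libraries was nearest to each member differed between members, as a description with n = 6 libraries that share scaling. The measure is the root mean square difference of centred log2 CPM (counts scaled to library size). Nearest to Acot1 were Cdc42ep5 (0.26), Cyp4a10 (0.27) and Igfbp1 (0.36), and nearest to Acot2 were Btg3 (0.36), Pdk4 (0.41) and Cyp4a31 (0.52). Acot3 had no close neighbour, with Ttc39aos1 at 0.55, Slc16a5 at 0.67 and 1700047I17Rik2 at 0.69. Acot4 was nearest to Rcor3 (0.29), Smad7 (0.32) and Rnf24 (0.33). The profiles of the type II members varied less, and their nearest genes were closer, Agtr1a (0.086), Hyal2 (0.097) and Marc1 (0.0998) for Acot8, Atl2 (0.057), Hsd17b4 (0.062) and Hadhb (0.070) for Acot12, and Pigyl (0.031), Camk2n1 (0.046) and Ccdc125 (0.051) for Acot13.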
